A study of Mus musculus with 4 samples.

Results

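The genes described here are the negative-feedback and output genes of the RAS-ERK pathway in MC38 cells, a mouse colon carcinoma line. They were chosen by name, as 10 Dusp, Spry, Spred and Etv genes known to be induced by ERK, and all 10 are listed among the 26322 genes of the deposited table. Of the 10, 9 passed the filter on low values, which asked 2 or more libraries for a log2 CPM (reads of a gene scaled to the library total) of 0 or above, while Dusp5 did not. MC38 cells had been electroporated with Cas9 protein carrying either a non-targeting guide (sgNT, labelled WT) or a guide against Cbfb (sgCbfb, labelled CbfbKO), so that both groups shared the Cas9 electroporation, and RNA was taken at least 1 week later from the cultured cells. Each group had 2 libraries made with a 3′ mRNA kit, and a further replicate of each was set aside by the submitters for poor RNA. A single guide was used per group, and whether the edited cells were a pool or a clone is not given in the sources used here. The labels do not say that replicates came from separate cultures, so p-values measure the spread between these libraries only.

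When growth factor receptors engage RAS, the kinases RAF, MEK and ERK are activated in turn, and ERK then switches on genes that both carry out and restrain the signal. The dual-specificity phosphatases Dusp4, Dusp5 and Dusp6 strip phosphate from ERK, Dusp4 and Dusp5 in the nucleus and Dusp6 in the cytoplasm. Sprouty proteins (Spry1, Spry2, Spry4) and the related Spred1 and Spred2 act further upstream on RAS and RAF, and Spred1 does so by bringing the RAS-inactivating protein neurofibromin to the membrane. Etv4 and Etv5 are transcription factors of the PEA3 group of ETS proteins and carry out part of the ERK programme. Because their mRNAs follow ERK activity, these genes are widely read as a gauge of pathway output in tumour cells. CBFβ, the protein encoded by Cbfb, is the partner that stabilises RUNX transcription factors on DNA.

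The sequences upstream of the genes were inspected for letters that RUNX proteins bind and for those bound by Capicua (Cic), a repressor that ERK inactivates and that sits on several of these genes. RefSeq promoter windows (GRCm38.p6, 250 bases before to 50 after a start) were matched by symbol for 7 of the 10 genes, with 8 windows in all. Capicua octamers (TGAATGAA, TGAATGGA, TCAATGAA or TCAATGGA, on either strand) were present in 2 of these 8 windows and in 3.84% of all 32851 windows. The Dusp6 window, from which chr10:99263081-99263240 on the plus strand is shown, holds TCAATGGA on the reverse strand at both 24 to 17 bases before the start and bases 2 to 9 after it. In Spry2, for which chr14:105896820-105896969 on the minus strand is shown, TCAATGAA lies on the reverse strand 54 to 47 bases before the start. RUNX hexamers (TGTGGT or TGCGGT, either strand) were present in 1 of the 8 windows and in 22.4% of all windows, and the one hit was TGCGGT at 156 to 151 bases before a second start of Etv5 (chr16:22438369-22438618, minus strand). These hits did not overlap one another. The ETS octamer CCGGAAGT (3.89% of all windows) and the AP-1 heptamers TGACTCA and TGAGTCA (5.2%) were in 0 of the 8. These matches are descriptions of the letters and not binding sites measured here. The 3 windows printed are those of the 8 that held any of these letters, so their choice was not independent of the matches. Dusp6 and Spry2 were also the best-covered genes with lower values in sgCbfb cells, and Etv5 had the largest positive difference. Any relation of the letters to these differences was not tested. The Capicua octamers (Dusp6, Spry2) and the RUNX hexamer (Etv5) are in capitals as they read on the gene's own strand.
Dusp6: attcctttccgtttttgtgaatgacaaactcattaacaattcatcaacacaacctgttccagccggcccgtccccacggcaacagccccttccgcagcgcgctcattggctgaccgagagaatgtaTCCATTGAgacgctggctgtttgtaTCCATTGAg
Spry2: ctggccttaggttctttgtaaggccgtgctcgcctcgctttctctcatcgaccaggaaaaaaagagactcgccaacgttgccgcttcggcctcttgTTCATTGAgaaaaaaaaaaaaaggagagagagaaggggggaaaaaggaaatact
Etv5: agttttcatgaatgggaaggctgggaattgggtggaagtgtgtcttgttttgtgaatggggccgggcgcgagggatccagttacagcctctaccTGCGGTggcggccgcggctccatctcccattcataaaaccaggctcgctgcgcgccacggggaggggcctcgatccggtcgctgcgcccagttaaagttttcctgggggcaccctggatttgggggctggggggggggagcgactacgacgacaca

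The libraries held between 3189035 and 3907936 reads counted on genes, so that 1 read was worth 0.256 to 0.314 CPM. Cbfb was measured in every library first, with 295 and 285 reads in sgNT cells and 125 in each sgCbfb library (log2 difference -1.27, standard error (SE) 0.12, adjusted p = 1.76e-07 by limma). Of 12207 genes tested, 192 had higher and 153 lower values in sgCbfb cells at an adjusted p under 0.05. Higher genes made up 55.7% of these calls with library totals, 48.4% with median centring and 42.8% in voom on recovered reads with TMM scaling, which sets library sizes from a trimmed mean of log ratios. Defining markers of colon epithelium were at or near 0, with 9 markers summing to between 5 and 7 reads per library and Krt18, Vil1 and Lgals4 at 0 reads throughout, whereas Vim had 6737 to 8669 reads. Immune markers (7 genes) summed to 5 and 2 reads in sgNT and 9 and 8 in sgCbfb libraries, with Cd3e, Cd8a, Lyz2 and Itgam at 0. Endothelial markers (3 genes) summed to 1 or 2 reads, with Kdr at 0. The 7 mesenchymal markers summed to 2559 and 2703 CPM in sgNT and 2351 and 2249 CPM in sgCbfb cells, nearly all of it Vim. Among them 1 of 6 tested, the collagen gene Col3a1, fell (386 and 354 reads against 217 and 197, log2 difference -0.90, SE 0.10, adjusted p = 2.46e-06 by limma). Vim had a log2 difference of -0.18 (SE 0.051, adjusted p = 0.0538 by limma), and in voom with either scaling 2 of the 6, Col3a1 and Vim, passed as lower. The part of these markers in the differences described here was not tested. Of the 3 tested genes of the CBF-RUNX complex, Cbfb fell while Runx1 (log2 difference 0.65, SE 0.093, adjusted p = 6.84e-05) and Runx2 (0.79, SE 0.18, adjusted p = 0.0123 by limma) rose. The Runx2 call was lost in 7 of 13 alternative settings, among them quantile normalization (adjusted p = 0.121), no filter (0.165) and leaving out sgNT replicate 1 (0.0582) or sgNT replicate 2 (0.0854). Runx1 and Col3a1 were each lost in 4 of 13, with no filter (adjusted p = 0.117 and 0.250), without the mean-variance trend and with either sgCbfb library left out.

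None of the 9 tested genes differed between sgNT and sgCbfb cells past the threshold in limma (0 higher and 0 lower, against a background of 2.83% of all tested genes, 1.57% higher and 1.25% lower), and 1 of them, Spry2, had an unadjusted p under 0.05, which 14.9% of all tested genes had. In voom on the recovered reads the count past the threshold was also 0, with library totals and with TMM scaling, and 2 genes had an unadjusted p under 0.05 in each. The fitted log2 differences ran from -0.44 (Spred2) to 0.44 (Etv5), with 4 positive and 5 negative and a median of -0.22, beside a median of 0.039 over all tested genes. For 6 of the 9 the libraries of the groups did not overlap, 3 on the higher and 3 on the lower side in sgCbfb cells. Over all tested genes 44.1% did not overlap (27.4% higher and 16.8% lower), so that separated groups alone were common in this comparison. Dusp6, Spry2 and Spred2 lay on the lower side and Spred1, Etv4 and Etv5 on the higher side.

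**Figure D1:**
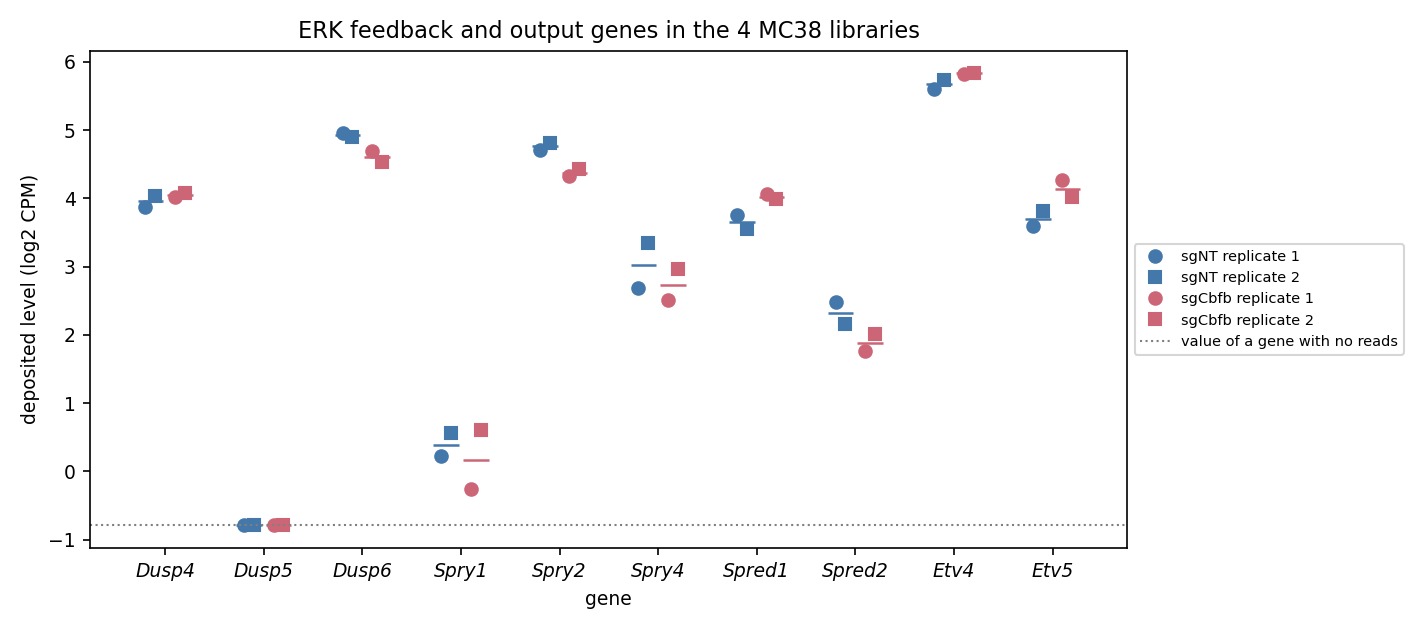
Deposited log2 CPM (vertical axis) of each of the 10 genes (horizontal axis) in the 2 sgNT and 2 sgCbfb libraries, with short lines at the group means and a dotted line at -0.79, the value of a gene with no reads. Dusp6, Spry2 and Spred2 sit lower and Spred1, Etv4 and Etv5 sit higher in both sgCbfb libraries, with group means at most 0.44 apart on the log2 scale, and Dusp5 lies on the dotted line.

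Among the phosphatases, Dusp6, the cytoplasmic phosphatase most selective for ERK, had 104 and 98 reads in sgNT and 99 and 72 in sgCbfb libraries. Its deposited levels were 4.96 and 4.91 log2 CPM in sgNT and 4.70 and 4.53 in sgCbfb cells. Both sgCbfb values lay below both sgNT values, and the gap between the groups was of the same order as the spread within sgCbfb. The difference was -0.32 (95% confidence interval -0.66 to 0.016, adjusted p = 0.368 by limma), which corresponds to 80.1% of the sgNT level with an interval of 63.5% to 101%. Dusp6 lies on chromosome 10 (99263231 to 99267489, plus strand, GRCm38), and no other annotated gene overlaps it.

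Dusp4, a nuclear phosphatase of ERK and other MAP kinases, had 48 and 53 reads in sgNT and 61 and 52 in sgCbfb libraries. Its levels of 3.88 and 4.04 log2 CPM in sgNT overlapped those of 4.02 and 4.08 in sgCbfb cells. The difference of 0.087 had an interval of -0.35 to 0.53 (adjusted p = 0.899 by limma), which spans 78.4% to 144% of the sgNT level. A fitted difference smaller than 0.77 on either side would not have been called for this gene. With 1 library left out the Dusp4 difference ranged from 0.0055 to 0.17. Dusp5, a nuclear phosphatase specific for ERK, had 0 reads in all 4 libraries. A count of 0 allows a level of up to 0.768 to 0.941 CPM per library (3 counts of the total, counting error only).

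Sprouty proteins are inducible inhibitors that act between the receptor and RAF. Spry2 had 87 and 92 reads in sgNT and 76 and 67 in sgCbfb libraries. Its levels were 4.71 and 4.82 log2 CPM in sgNT and 4.32 and 4.43 in sgCbfb cells. The sgCbfb values lay below the sgNT values by a gap wider than the spread within either group. Its difference of -0.39 (SE 0.17, interval -0.74 to -0.026, unadjusted p = 0.0366 and adjusted p = 0.290 by limma) gave 76.6% of the sgNT level and was lower in 2 of 2 sgCbfb libraries, and it did not pass correction over all genes. Across 13 alternative settings the adjusted p lay between 0.206 and 0.607, and the difference between -0.44 and -0.33. Spry2 lies on chromosome 14 (105891947 to 105896819, minus strand, GRCm38).

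Spry4 had 20 and 32 reads in sgNT and 20 and 23 in sgCbfb libraries. At 2.69 and 3.35 log2 CPM in sgNT and 2.51 and 2.96 in sgCbfb cells, the groups overlapped. The fitted difference of -0.28 (interval -0.95 to 0.38, adjusted p = 0.757 by limma) turned to 0.043 when sgNT replicate 2 was left out. Spry1 was close to the floor, with 2 and 3 reads in sgNT and 1 and 3 in sgCbfb libraries. Its sign also rested on 1 library, since the difference of -0.22 (interval -1.32 to 0.88, adjusted p = 0.896 by limma) became 0.21 without sgCbfb replicate 1. For neither gene do these reads give a direction.

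The Spred genes, whose products hold RAS in check at the membrane, had values on opposite sides. Spred1 had 44 and 37 reads in sgNT and 63 and 49 in sgCbfb libraries. Its levels were 3.76 and 3.55 log2 CPM in sgNT and 4.06 and 3.99 in sgCbfb cells, without overlap. The difference of 0.38 (interval -0.089 to 0.84, adjusted p = 0.473 by limma) corresponds to 130% of the sgNT level. Spred2 had 17 and 13 reads in sgNT and 11 in each sgCbfb library. Its levels of 2.48 and 2.16 log2 CPM in sgNT lay above those of 1.76 and 2.01 in sgCbfb cells. A difference of -0.44 (interval -1.20 to 0.33, adjusted p = 0.649 by limma) was fitted, with a wide interval at 11 to 17 reads per library. With 1 library left out the Spred2 difference ranged from -0.595 to -0.276. Spred1 lies on chromosome 2 (117121374 to 117182279, plus strand) and Spred2 on chromosome 11 (19924375 to 20024026, plus strand, GRCm38). The Spred1 and Spred2 differences were not compared by a test of their own.

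Etv4 and Etv5 had higher values in both sgCbfb libraries, and neither passed the test. Etv4 was the best covered of the 10 genes, with 164 and 176 reads in sgNT and 220 and 180 in sgCbfb libraries. Its levels were 5.61 and 5.74 log2 CPM in sgNT and 5.83 in both sgCbfb libraries, so that the sgCbfb values lay just above the sgNT values. Its difference of 0.16 (SE 0.12, interval -0.086 to 0.40, adjusted p = 0.591 by limma) gave 112% of the sgNT level, and the upper end of the interval is 132%. With 1 library left out the Etv4 difference ranged from 0.094 to 0.22. Etv5 had 39 and 45 reads in sgNT and 73 and 50 in sgCbfb libraries. Its levels were 3.59 and 3.81 log2 CPM in sgNT and 4.27 and 4.02 in sgCbfb cells, again without overlap but with a spread within each group close to the gap between them. The difference of 0.44 (SE 0.22, interval -0.016 to 0.90, unadjusted p = 0.0581 and adjusted p = 0.359 by limma) corresponds to 136% of the sgNT level. Etv1, the remaining PEA3-group gene and not one of the 10, had 36 and 35 reads in sgNT and 43 and 33 in sgCbfb libraries, with overlapping groups and a difference of 0.016 (adjusted p = 0.987 by limma), which was negative with median centring, quantile normalization and voom with TMM scaling. Etv4 lies on chromosome 11 (101769742 to 101785371) and Etv5 on chromosome 16 (22381309 to 22439719), both on the minus strand of GRCm38.

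Reads of these genes were also summed by role, as a description without a test, since the genes were chosen by name with results known. The 8 feedback inhibitors (Dusp, Spry and Spred genes) summed to 94.8 and 98.3 CPM in sgNT and 84.7 and 86.9 CPM in sgCbfb libraries, or 88.8% of the sgNT mean. Spry genes alone summed to 32.1 and 38.1 CPM in sgNT and 24.8 and 29.2 CPM in sgCbfb libraries, and Dusp genes to 44.8 and 45.3 CPM and 40.9 and 38.9 CPM. The Spred pair, with Spred1 above and Spred2 below its sgNT level, stood the other way at 17.96 and 14.99 CPM in sgNT and 18.9 and 18.8 CPM in sgCbfb libraries. Etv4 and Etv5 together had 59.8 and 66.3 CPM in sgNT and 75.0 and 72.1 CPM in sgCbfb libraries, 117% of the sgNT mean. Over all 10 genes the sums overlapped, with 154.6 and 164.6 CPM against 159.7 and 159.0 CPM. These sums kept their side under TMM scaling, median centring and quantile normalization, with the inhibitors at 86.6%, 87.4% and 86.5% and the Etv pair at 114%, 115% and 114% of sgNT. The Dusp, Spry, Spred and Etv sums are each carried mostly by the best-covered gene, Dusp6, Spry2, Spred1 and Etv4 respectively.

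**Figure D2:**
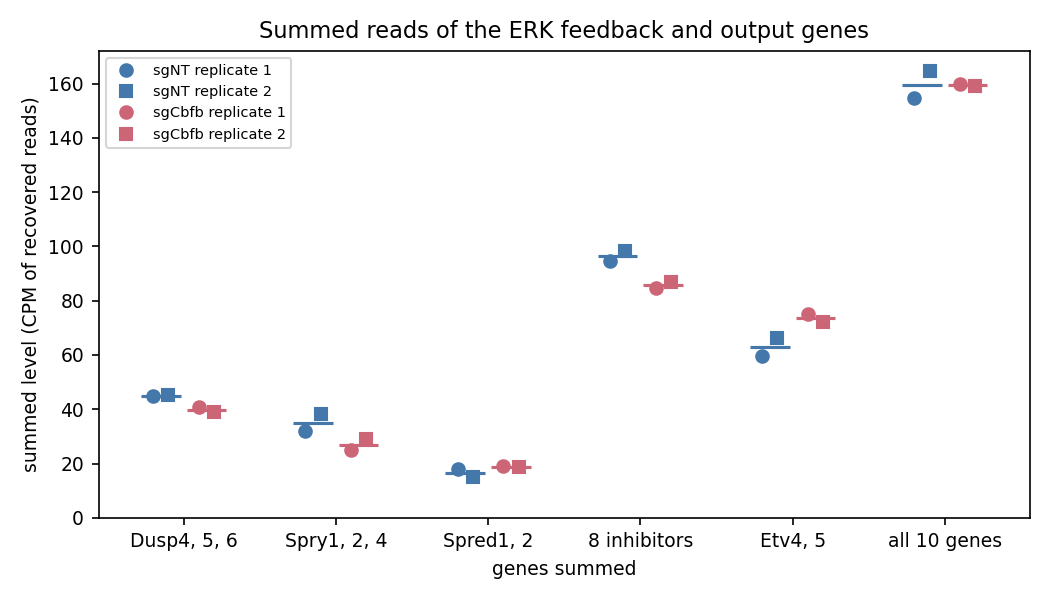
Summed CPM of recovered reads (vertical axis, from 0) for the Dusp, Spry and Spred genes, the 8 inhibitors together, the Etv pair and all 10 genes, one point per library and a line at each group mean. The inhibitors sum to 94.8 and 98.3 CPM in sgNT and to 84.7 and 86.9 CPM in sgCbfb libraries, the Etv pair stands on the opposite side, and the sums over all 10 genes overlap.

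The order of levels was read without correction for length, because a 3′ library samples each transcript at its end whatever its length, although priming can differ between genes. In sgNT cells the log2 CPM was 5.67 ± 0.090 (SD, n = 2) for Etv4, 4.93 ± 0.041 for Dusp6, 4.76 ± 0.074 for Spry2, 3.96 ± 0.12 for Dusp4, 3.70 ± 0.16 for Etv5 and 3.65 ± 0.15 for Spred1. Below these came Spry4 at 3.02 ± 0.46, Spred2 at 2.32 ± 0.23, Spry1 at 0.39 ± 0.24 and Dusp5 at the floor. Etv5 and Spred1 overlapped in their sgNT libraries and could not be put in order. In sgCbfb cells Etv5 at 4.15 ± 0.17 log2 CPM stood above Dusp4 at 4.05 ± 0.043 by group mean, with Spred1 after both at 4.03 ± 0.047, and the libraries of these genes overlapped. Etv4, Dusp6 and Spry2 led the 10 in this order by group mean in both groups. Placed among all 26322 genes by mean level, Etv4 ranked 3338 and Dusp6 ranked 5339.

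How large a fitted difference had to be to pass differed between the genes. The largest unadjusted p that was called was 0.00139, and at each gene's own standard error this required a log2 difference of 0.43 for Etv4, 0.59 for Dusp6, 0.63 for Spry2, 0.77 for Dusp4, 0.80 for Etv5 and 0.82 for Spred1. For Spry4, Spred2 and Spry1 the required differences were 1.17, 1.34 and 1.93. On the linear scale the fitted level had to be as low as 66.4% of sgNT for Dusp6, 64.6% for Spry2 and 44.5% for Spry4. These are sizes of the fitted difference, and a true change of that size could be estimated on either side of the limit. The SE was 0.163 for Dusp6, 0.174 for Spry2 and 0.118 for Etv4, where counting alone gives 0.151, 0.162 and 0.107. For the genes with fewest reads the fitted SE was below the counting error, at 0.369 against 0.407 for Spred2 and 0.531 against 1.06 for Spry1, so that their intervals and required differences, on the scale with a prior count of 2, understate the counting error. The 95% intervals end at 63.5% of the sgNT level for Dusp6 and 59.7% for Spry2 on the lower side.

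**Figure D3:**
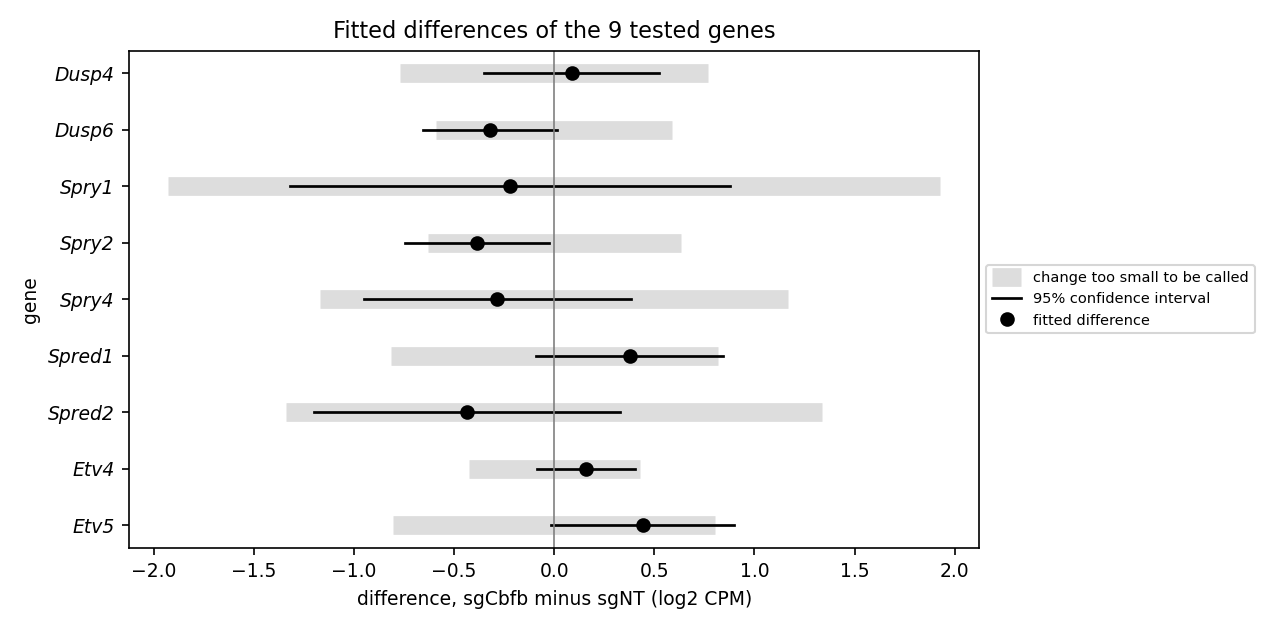
Fitted log2 differences (sgCbfb minus sgNT, horizontal axis) of the 9 tested genes as points with 95% confidence intervals as lines, over grey bars that span the differences too small to be called at that gene's standard error. Every point lies inside its grey bar, and the bars widen from 0.43 either side of 0 for Etv4 to 1.93 for Spry1.

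Beside the 10 genes, 11 of their paralogs were followed, of which 10 were tested, 1 rose, 0 fell and 9 did not pass, with a median difference of 0.16. Over all tested genes 2.83% passed, 1.57% higher and 1.25% lower. The gene that rose was Dusp2, a nuclear phosphatase of ERK and p38 known from activated lymphocytes. It had 55 and 58 reads in sgNT and 103 and 117 in sgCbfb libraries, a log2 difference of 0.87 (SE 0.19, adjusted p = 0.00750 by limma). Every sgCbfb value lay above every sgNT value, as for 27.4% of all tested genes. Dusp10, a phosphatase of JNK and p38, had a difference of similar size at 0.86, with 27 and 43 reads against 89 and 50, but did not pass (adjusted p = 0.0689 by limma). In voom on recovered reads 2 paralogs passed, Dusp2 and Dusp10, with either scaling. The better covered ERK phosphatases Dusp7 and Dusp9 had differences of -0.094 and 0.19 (adjusted p = 0.731 and 0.277 by limma), and Dusp1 had -0.38 (adjusted p = 0.353). Spry3 had 0 reads in every library. Values of Dusp7, Dusp9, Dusp10 and Dusp1 were picked out after they had been seen. The call for Dusp2 was lost with quantile normalization (adjusted p = 0.196) and without sgNT replicate 1 (adjusted p = 0.0754 by limma).

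Upstream of these genes, 0 of the tested genes that carry the signal to ERK passed the threshold, by limma or by voom with either scaling. By limma 1 gene in each of the following groups had an unadjusted p under 0.05, as 14.9% of all tested genes did. Adaptors and exchange factors (8 listed, 7 tested) had a median difference of 0.096, with Grb2, the adaptor that brings SOS to receptors, at 0.096 and the phosphatase Ptpn11 (SHP2) at 0.038 on the log2 scale. RAS proteins (6 of 6 tested) had a median of 0.092. Nras had 483 and 610 reads in sgNT and 715 and 538 in sgCbfb libraries, a difference of 0.12 with an interval of -0.073 to 0.32 (adjusted p = 0.604 by limma). RAF, MEK, ERK and their scaffolds (10 listed, 9 tested) had a median of -0.016. Braf differed by 0.10 with an interval of -0.25 to 0.46 (adjusted p = 0.851 by limma). Mapk3, which encodes ERK1, had 429 and 411 reads in sgNT and 623 and 453 in sgCbfb libraries and a difference of 0.27 (adjusted p = 0.0974 by limma), which passed only with a minimum of 5 CPM (adjusted p = 0.0464). These are mRNA levels, and the phosphorylation of ERK was not measured in these libraries.

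Among 11 other inhibitors of RAS and ERK, all tested, 1 rose, 0 fell and 10 did not pass, with a median of -0.12. The share past the threshold over all tested genes was 2.83% (1.57% higher and 1.25% lower). Rasal2, a RAS GTPase-activating protein that speeds the return of RAS to its inactive form, was the gene that rose, from 102 and 115 reads in sgNT to 208 and 178 in sgCbfb libraries. Its difference was 0.75 (SE 0.13, adjusted p = 0.00108 by limma), and its call was lost with quantile normalization (adjusted p = 0.0782). Every sgCbfb value lay above every sgNT value, as for 27.4% of all tested genes. In voom with library totals Pea15a, which holds ERK in the cytoplasm, passed as well, a gene likewise picked out afterwards. Kinases fed by ERK and its nuclear factors (14 of 14 tested) had a median of 0.13, with 0 past the threshold by limma and by voom with either scaling. By limma 2 of them had an unadjusted p under 0.05, as 14.9% of all tested genes did. Ets1, an ETS factor that ERK phosphorylates, differed by -0.12, and Erf, an ETS repressor that ERK exports from the nucleus, by 0.060 (adjusted p = 0.594 and 0.867 by limma). Cic, the gene of Capicua, had 117 and 95 reads in sgNT and 140 and 144 in sgCbfb libraries. Its difference of 0.35 did not pass (unadjusted p = 0.0298 and adjusted p = 0.263 by limma), and it was picked out after its values were seen. Any link between Cic and the differences of the 10 genes was not tested.

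Of 20 further genes known to be induced by ERK, 18 were tested, 1 rose, 3 fell and 14 did not pass, with a median of -0.17. Over all tested genes 2.83% passed, 1.57% higher and 1.25% lower. The list was chosen with earlier results of these data known, so its count is a description. The ERBB ligand genes Areg (amphiregulin) and Ereg (epiregulin), which feed back on the EGF receptor, fell. Areg went from 88 and 76 reads in sgNT to 40 and 36 in sgCbfb libraries, a log2 difference of -1.13 (SE 0.21, adjusted p = 0.00154 by limma) or 45.5% of the sgNT level. Ereg went from 106 and 88 reads to 68 and 54, a difference of -0.72 (SE 0.18, adjusted p = 0.0242 by limma). Hbegf, a further ERBB ligand gene of the list, had 117 and 90 reads in sgNT and 162 and 132 in sgCbfb libraries and did not pass (log2 difference 0.43, SE 0.15, unadjusted p = 0.00762 and adjusted p = 0.137 by limma), with higher values in both sgCbfb libraries, and was picked out after its values were seen. Ccnd1, which encodes the G1 cyclin D1 and had 2353 to 3072 reads per library, fell to 82.7% of its sgNT level (log2 difference -0.27, SE 0.055, adjusted p = 0.00353 by limma). Ier3, an immediate-early gene linked to survival under stress, rose from 2109 and 1946 reads to 3154 and 2612, a difference of 0.43 (SE 0.057, adjusted p = 2.07e-05 by limma). Phlda1, which is often scored together with Dusp6, Spry2 and Etv4 as an ERK readout, differed by 0.065 with an interval of -0.14 to 0.27 (adjusted p = 0.837 by limma). In voom with either scaling the same 4 genes passed. For each of the 4, both sgCbfb libraries lay on the same side of both sgNT libraries, which adds little for genes already past the threshold. Groups did not overlap for 10 of the 18 tested genes of this list and for 44.1% of all tested genes.

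The calls among these output genes, and those of Dusp2 and Rasal2, depended on the libraries and settings. With no filter on low values the adjusted p was 0.260 for Areg, 0.432 for Ereg, 0.486 for Ccnd1, 0.327 for Ier3, 0.663 for Dusp2 and 0.346 for Rasal2 by limma, and without the mean-variance trend no gene of the table was called. The differences themselves kept their sign in all 13 settings and did not move with no filter, and that of Areg ranged from -1.23 to -1.04, Ereg from -0.84 to -0.60, Ccnd1 from -0.31 to -0.24 and Ier3 from 0.39 to 0.48. Quantile normalization ended the calls of Areg (adjusted p = 0.0627) and Ereg (adjusted p = 0.142). A group with a library left out has 1 sample, which is then assumed to vary like the other group. Leaving out sgNT replicate 1 ended those of Areg (adjusted p = 0.0614), Ereg (0.241) and Ccnd1 (0.0501), and leaving out sgNT replicate 2 ended those of Ereg (0.0708) and Ccnd1 (0.0898). With either sgCbfb library left out, no gene of the table was called by limma, Cbfb included (adjusted p = 0.267 without sgCbfb replicate 1 and 0.193 without replicate 2), although 1104 and 1169 genes had an unadjusted p under 0.05.

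**Figure D4:**
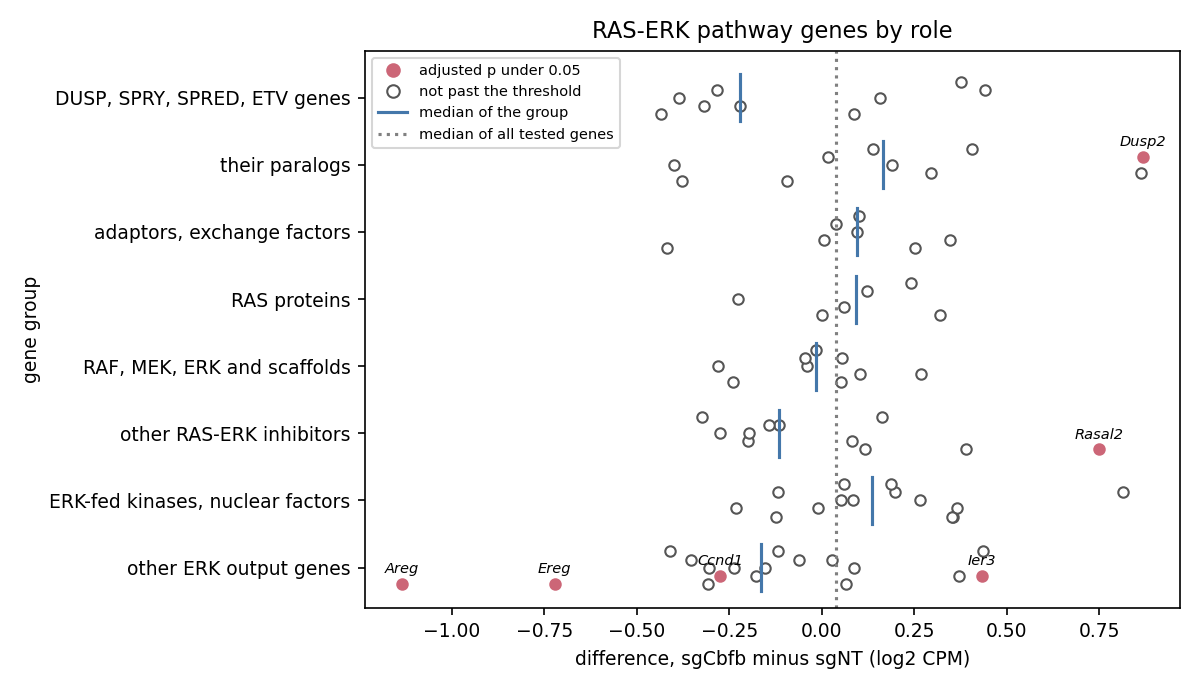
Log2 differences (sgCbfb minus sgNT, horizontal axis) of all tested genes in 8 groups of the RAS-ERK pathway (vertical axis), filled where the adjusted p was under 0.05, with a bar at each group's median and a dotted line at 0.039, the median of all tested genes. The filled points are Dusp2, Rasal2, Areg, Ereg, Ccnd1 and Ier3, and none belongs to the group of Dusp, Spry, Spred and Etv genes in the top row.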

How the data were processed

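The data are 3′ mRNA libraries of MC38 cells, 2 sgNT and 2 sgCbfb, grouped by their labels. The authors trimmed reads with cutadapt (version 1.9 in the submitters' processing notes), aligned them to GRCm38/mm10 with HISAT2 2.1.0, assigned them to genes by featureCounts, and deposited normalized values as log2 CPM, 1 column per library. The version of featureCounts differs between the sources. Annotation release, strand setting and handling of multi-mapping reads are not given in the sources used here, so reads of overlapping or antisense genes could be miscounted. No annotated gene overlaps the 3′ end of any of the 10 genes.

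Differences were tested two-sided by limma (3.58.1, under R 4.3.3) with a mean-variance trend, taking the log2 CPM as deposited. The fit held the 12207 genes that reached a log2 CPM of 0 in 2 or more libraries, with Benjamini-Hochberg adjustment over all of them and a threshold of 0.05. An exact permutation test of 2 against 2 libraries cannot go below p = 0.333. The study used voom with limma, which needs counts. Values were scaled to library totals with a prior count of 2, and whole reads were recovered from their steps. Within a tolerance of 0.1 all values came out whole but 1, in sgNT replicate 2. Recovered reads (3396192 and 3335116 in sgNT, 3907936 and 3189035 in sgCbfb) served for depth, sums and voom. Replicates differed by more than sampling noise (chi-square per gene of 1.58 in sgNT and 2.15 in sgCbfb over 9520 genes). The scripts were tested on simulated data.

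Members and gene lists were chosen with earlier results of these data known. Named genes are the 10 members, Cbfb, 5 fixed pathway genes and, in each list, those past the threshold or else its 2 most abundant, and some items are not reported here. Alternatives were no filter, a minimum of 5 CPM, median centring, quantile normalization, no trend, the replicate block, each library left out, voom with library totals or TMM, and a prior count of 0.5. Gene positions are from GENCODE M21, promoter windows from RefSeq (GRCm38.p6). Figures were drawn with matplotlib 3.10.9.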

Additional observations from a re-analysis of the deposited data

How the results depend on the processing

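No member passed the threshold under any of the 13 alternatives run, and 7 of the 9 tested members kept their sign in all those in which they were tested. Spry4 and Spry1 changed sign with 1 library left out, with ranges of -0.61 to 0.043 and -0.65 to 0.21. With each library left out in turn, other differences that changed sign ranged from -0.058 to 0.30 for Nras, -0.095 to 0.30 for Braf, -0.0039 to 0.080 for Ptpn11, -0.068 to 0.19 for Erf, -0.026 to 0.058 for Etv1 and -0.79 to 0.077 for Krt8. Etv1 was also negative with median centring (-0.0069), quantile normalization (-0.033) and voom with TMM (-0.017). The cause of these changes was not tested.

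Against 345 genes called (192 higher, 153 lower), there were 55 (2 and 53) with no filter, 300 higher with a minimum of 5 CPM, 83 (39 and 44) with quantile normalization, 0 (0 and 0) without the trend (1461 at an unadjusted p under 0.05), 535 with the replicate block (320 higher), and 243 lower in voom with TMM. Leaving out 1 library gave 0 to 201 genes, 0 to 115 higher and 0 to 86 lower. Cbfb stayed at -1.27 but lost its call with no filter (adjusted p = 0.290) and without the trend (adjusted p = 0.115 from limma), and ranged from -1.41 to -1.13 with a library left out. The replicate block called 0 members, and the deviations of libraries that share a number were uncorrelated over genes (-0.0042). Genes with few reads weighed as much as the others in this correlation, so it cannot exclude that the numbers pair the libraries. The planned edgeR test was not run, and voom was the only count-based test applied to the recovered reads. Depth limits the members with few reads, with 1 to 3 for Spry1 and 11 to 17 for Spred2.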
